A study of Saccharomyces cerevisiae with 5 samples.

Results

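The large-subunit ribosomal protein genes (RPL genes) of *Saccharomyces cerevisiae* encode the proteins of the 60S subunit of the cytosolic ribosome. They were taken as the rows of the host tables whose systematic name is on a list of 60 RPL genes outside chromosomes II and X. Of these, 59 were found among 5264 host genes, and RPL11A (YPR102C) had no row and was not analysed here. A further 7 large-subunit gene symbols outside chromosomes II and X in the gene table used for names are not on the list. All 59 passed the filter on low signal in every library. They comprise 42 genes in 21 duplicate pairs (an A and a B copy), 10 genes of which only 1 copy is in the set, and 7 whose symbol carries no letter, such as RPL3, RPL5 and RPL10.

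The values are coverage of mononucleosomal DNA, left after micrococcal nuclease had cut the DNA between nucleosomes. Each of the 5 strains carries DNA of another yeast on an artificial chromosome, an extra linear chromosome that the host copies and segregates. Strains YAC1, YAC2 and YAC3 carry DNA of *Kluyveromyces lactis*, and strains YAC6 and YAC7 carry DNA of *Debaryomyces hansenii*. All were grown in medium lacking tryptophan and uracil with 2% dextrose, and no strain without a foreign chromosome was analysed here. Each strain gave 1 library, so a spread given below is a spread between 5 strains and may be biological or technical. The RPL genes are native in all 5 strains, and the labels name no treatment or mutation aimed at them. Sets of 5 values below are listed by library in rising number, from YAC1 to YAC7.

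Ribosomal protein genes are among the most heavily transcribed genes of growing yeast and are switched on and off together with nutrient supply. At most of their promoters the factor Rap1 binds upstream of the start and brings in Fhl1 and its coactivator Ifh1, often with the HMG-box protein Hmo1, and a smaller number use Abf1. These promoters are known for broad stretches without stable nucleosomes. Downstream, the first nucleosome of the gene (the +1 nucleosome) begins a regular row of nucleosomes.

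The number of reads behind the values is unknown. In units of the smallest difference between 2 values of a table, the mean host signal per bin was 1739, 559, 396, 1479 and 726. Of the bins of the RPL genes, 0.54% to 2.47% were empty in the 5 libraries, against 0.27% to 1.09% of all host bins. In YAC2 and YAC3 the signal also differed between whole chromosomes: over the 11 chromosomes that hold RPL genes, the median gene of a chromosome lay between 0.76 below and 0.48 above the host median in YAC2 and between 0.63 below and 0.62 above it in YAC3, on the log2 scale, and at most 0.14 above or 0.09 below it in the other 3 libraries. Medians called host medians below are over 4571 genes outside chromosomes II and X.

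The promoters of the RPL genes differed between the libraries most between -220 and -100 bp of the listed start, and to a lesser degree on either side. In the mean profile of the 59 genes, each scaled to its own mean signal, the height at -140 bp was 0.27, 0.62, 1.42, 0.053 and 0.90. The same position in the mean host profile held 0.61 to 0.70 in all 5 libraries. The RPL promoters were thus nearly empty there in YAC6, close to the host in YAC2, and carried a peak in YAC3 nearly as high as that of the +1 nucleosome (1.45). The 42 small-subunit (RPS) genes went through the same order, with 0.40, 0.79, 1.72, 0.16 and 1.23. Outside that stretch the RPL height ran from 0.29 in YAC6 to 0.95 in YAC3 at -250 bp, and from 0.061 to 0.85 at -80 bp.

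**Figure D1:**
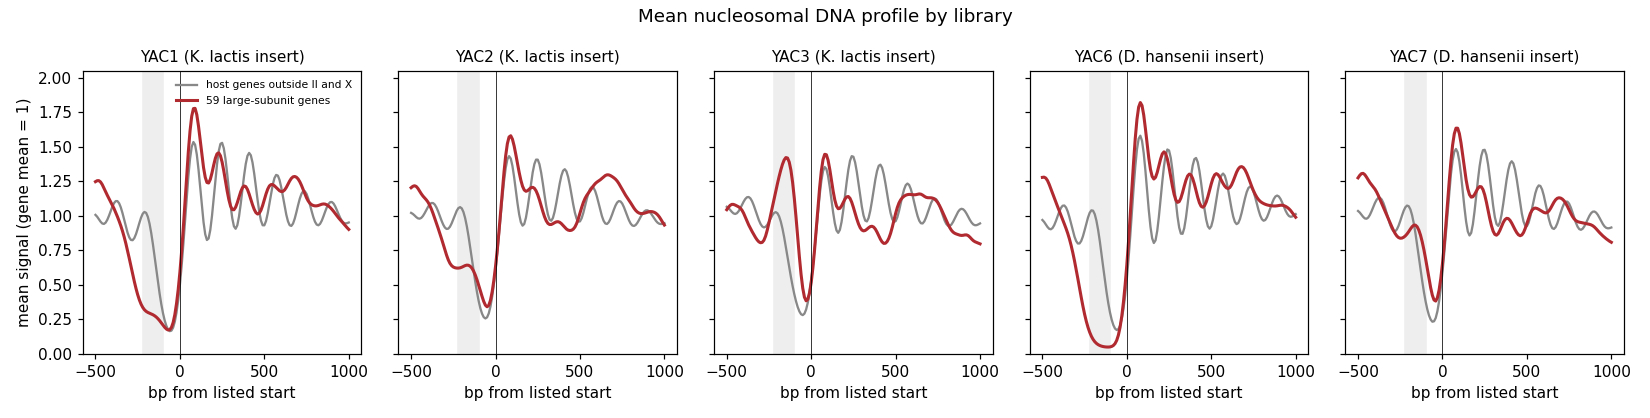
Mean signal (y axis, each gene scaled to a mean of 1) against distance from the listed start in bp (x axis), 1 panel per library, for the 59 large-subunit genes in red and 4571 host genes outside chromosomes II and X in grey. The grey band is -220 to -100 bp, where the height of the red line at -140 bp runs from 0.053 in YAC6 to 1.42 in YAC3.

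Gene by gene, the mid-promoter ratio (log2 of the mean at -220 to -100 bp divided by the mean at +100 to +500 bp, a window chosen after these profiles were seen, so without a test) had medians of -1.96, -0.96, 0.05, -3.26 and -0.47. The host medians were -0.71, -0.59, -0.68, -0.48 and -0.65. The pseudocount gives an empty stretch beside a body at the gene's mean a ratio of -3.46, so most values of YAC6 lie near the lowest that can be read. The highest library median exceeded the lowest by 3.31, and by 2.01 without YAC6. In YAC6 all 59 RPL genes lay below the host median and in YAC1 58 did, while in YAC3 only 21 did. Relative to the host median of each library, the ratio was highest in YAC3 for 48 of the 59 genes and lowest in YAC6 for 56. Both held for 47 genes (79.7%), against 22.3% of host genes. In 52 genes the ratio itself in each of YAC2, YAC3 and YAC7 stood above that in YAC1 and in YAC6 (88.1%, against 25.2% of host genes). The orders of libraries counted here were read from the same RPL genes, so these shares are a description and not a test.

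The libraries with little signal, YAC1 and YAC6, carry inserts from different species, so this order of libraries does not follow the species of the foreign DNA. Mean signal in steps was highest in these same libraries, 1739 and 1479, and lowest in YAC3, 396. The median mid-promoter ratio of host genes stayed between -0.71 and -0.48 in the same libraries. That level is far above that of an empty stretch, so it does not bear on near-empty promoters. The part of depth in the order of libraries was not tested. Closer to the start, at -120 to -20 bp, the host medians were lower in YAC1 and YAC6 as well, at -2.37 and -2.41, against -1.84, -1.84 and -1.98 in the other 3.

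**Figure D2:**
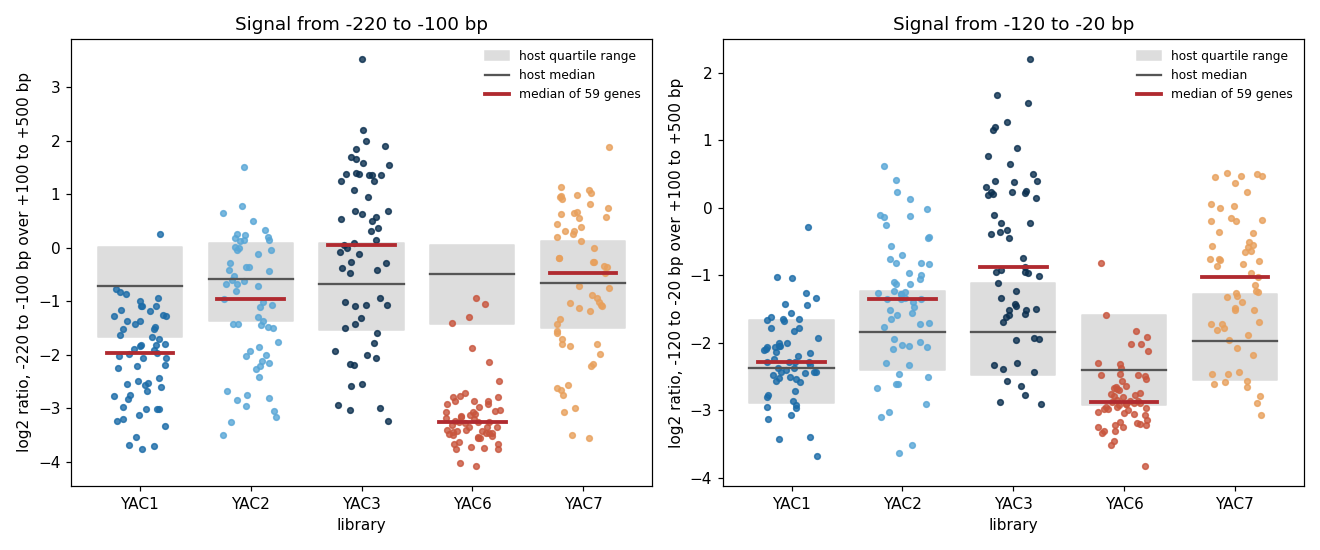
Log2 ratio of signal from -220 to -100 bp (left) and from -120 to -20 bp (right) to signal from +100 to +500 bp (y axes) in each library (x axes). Points are the 59 large-subunit genes, red lines their medians, grey lines and boxes the host medians and quartiles. On the left the red line falls to -3.26 in YAC6 and rises to 0.05 in YAC3 while the grey lines stay between -0.71 and -0.48.

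The gene that differed most was RPL42B (YHR141C), whose product eL42 lies at the site through which spent tRNA leaves the ribosome. Its mid-promoter ratio was 0.26, 1.51, 3.52, -2.78 and 1.87. The highest smoothed point of that stretch was 17.0 times the mean of its gene body in YAC3 and 0.10 times in YAC6. In YAC6 the stretch was almost empty, and in the other 4 libraries it held more signal than the gene body. The body signal of RPL42B was itself low, between 2.14 below the host median in YAC3 and 0.67 below it in YAC6 (log2), which raises a ratio to it.

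RPL20B (YOR312C) gave ratios of -1.08, 0.13, 2.19, -3.17 and 0.97. RPL34B (YIL052C) gave -1.51, 0.49, 1.702, -3.50 and 0.82, and RPL2B (YIL018W), whose product uL2 lies near the peptidyl transferase centre, gave -0.82, 0.65, 1.99, -2.77 and 0.74. In each of these 3 genes the values of YAC2, YAC3 and YAC7 lay above 0 and those of YAC1 and YAC6 below it. RPL40A (YIL148W), which encodes a ribosomal protein fused to ubiquitin, gave -1.51, 0.34, 1.36, -3.20 and 0.30. RPL35A (YDL191W), for a protein at the mouth of the exit tunnel, gave -1.64, -0.52, 1.39, -3.74 and 0.20. These genes are not a ranking of this stretch. Relative to the host medians, RPL13B (YMR142C, range 5.35) and RPL23B (YER117W, 5.32) exceeded RPL2B (4.95) and RPL40A (4.75). RPL20B, RPL2B and RPL40A are named for their spread between libraries closer to the start, given below.

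The stretch reached the level of the gene body in no library in 18 of the 59 genes (30.5%), a share near the 29.6% of host genes, and in at least 1 library in the other 41. RPL10 (YLR075W), whose product uL16 joins the subunit late in its assembly, kept ratios of -3.69, -2.96, -3.23, -3.56 and -3.56. RPL8A (YHL033C) kept -3.71, -3.17, -3.03, -3.63 and -3.50, and RPL3 (YOR063W), for a protein near the catalytic centre, -3.33, -2.42, -3.00, -3.45 and -2.62. These promoters stayed depleted in all 5 libraries, YAC3 included, with no point above 0.28 of the body mean. RPL15A (YLR029C) likewise stayed between -3.42 and -2.56. RPL15B (YMR121C) kept more signal, between -2.01 and -0.95, and was highest in YAC6. RPL36A (YMR194W) held a peak near the level of its gene body in all libraries, 0.93 to 1.10 times its mean, and its ratios spanned only 0.60. The genes of this paragraph and RPL34B and RPL35A above were picked after their values were seen.

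**Figure D3:**
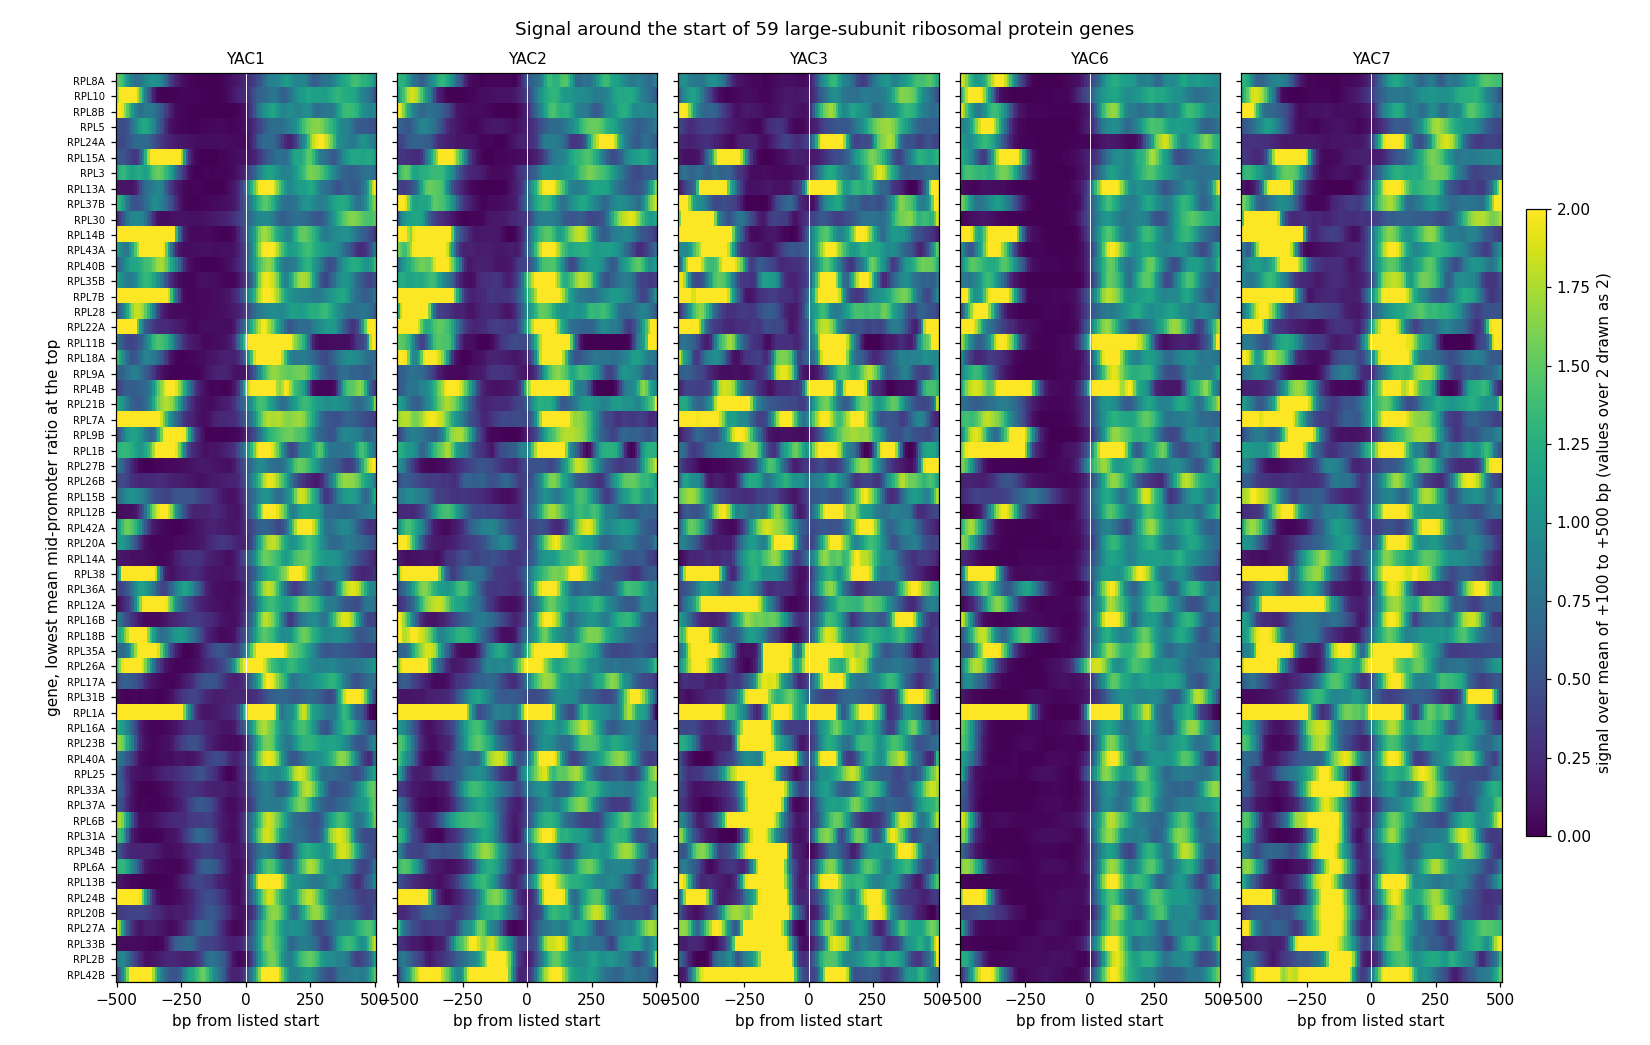
Smoothed signal of each of the 59 genes (rows, from the lowest to the highest mean mid-promoter ratio) from -500 to +500 bp of the listed start (x axis) in the 5 libraries (panels), as a multiple of the mean from +100 to +500 bp (colour, drawn up to 2). Rows at the bottom, such as RPL42B and RPL2B, hold a bright peak upstream of the start in YAC3 and none in YAC6, while rows at the top, such as RPL8A and RPL10, are dark there in every library.

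After subtracting each library's host median, the range of the mid-promoter ratio over the 5 libraries exceeded the 95th percentile of host genes, 2.71, in 35 of the 59 RPL genes, against 5.01% of host genes. Their median range was 3.41 and that of the host 0.85. With any 1 library left out and the percentile taken again, 35 or 36 genes exceeded it, although the median range fell to 2.10 without YAC6. Among related gene groups, 28 of 42 RPS genes passed the same line, as did 1 of 5 genes for the stalk proteins of the large subunit. None of 8 regulators of ribosomal protein genes (such as RAP1, FHL1 and IFH1) and none of 28 genes for the mitochondrial large subunit passed it. Their median ranges were 0.72 and 0.89, near that of the host, in the same 5 libraries. All ranges here use the window chosen after the RPL profiles were seen, so a high RPL count is partly built in. Leaving out a library does not change that choice.

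Closer to the start, the usual measure of a depleted promoter is the promoter ratio, log2 of the mean at -120 to -20 bp divided by the mean at +100 to +500 bp. The lower it is, the deeper the depletion. The 59 genes had medians of -2.28, -1.35, -0.88, -2.87 and -1.03, and the host medians were -2.37, -1.84, -1.84, -2.41 and -1.98. Below the host median of their library stood 25, 18, 12, 49 and 12 RPL genes. The RPL promoters were therefore deeper than the host median in YAC6, close to it in YAC1 and shallower in YAC2, YAC3 and YAC7. More signal in the promoter than in the gene (a ratio above 0) was found for 0, 4, 21, 0 and 9 of the 59 genes. The host shares were 1.88%, 3.19%, 6.74%, 2.12% and 3.87%.

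Over the 5 libraries, limma's test across 5252 host genes called 9 RPL genes lower than the host median (15.3%) and 21 higher (35.6%) at an adjusted p under 0.05. Of all host genes, 28.2% were called lower and 35.8% higher, so the share of RPL genes called higher lies at the background. The median difference of the 59 genes was 0.50, against 0.12 over all genes tested. This direction depended on both the reference and the window. With the promoter signal set against the host median signal instead of the gene body, 18 RPL genes were lower and 8 higher, with a median of -0.06. With a window from -200 to -20 bp, still relative to the gene body, 22 were lower and 1 was higher, with a median of -0.20. Without YAC6 the test called 37 genes higher, and without YAC7, YAC2 or YAC3 it called 5, 8 or 12.

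The deepest promoters by this measure were those of RPL9B, RPL8B and RPL5. RPL9B (YNL067W), for uL6 near the sarcin-ricin loop, had ratios of -3.40, -3.64, -2.88, -3.21 and -2.57, a difference from the host median of -1.05 ± 0.17 (SE, limma adjusted p = 0.000651). RPL8B (YLL045C), whose product is needed for the processing of ribosomal RNA precursors, had -3.67, -3.52, -2.39, -3.25 and -2.65, a difference of -1.01 ± 0.17 (SE, limma adjusted p = 0.000932). RPL5 (YPL131W), for the uL18 protein that carries 5S RNA into the ribosome, had -3.43, -2.67, -2.43, -3.33 and -3.08, a difference of -0.90 ± 0.11 (SE, limma adjusted p = 0.00018). All 3 were below the host median in all 5 libraries. The other genes called lower were RPL8A, RPL3, RPL24A (YGL031C), RPL15A, RPL14B (YHL001W) and RPL10, with differences of -0.76 to -0.43. In 8 of these 9 genes, all but RPL9B, the mid-promoter stretch reached the level of the gene body in no library. This is partly built in, because the windows overlap and both are read against the same body mean. The share among host genes called lower was not counted.

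At the other end stood RPL26A, RPL42B and RPL2B. RPL26A (YLR344W), for uL24 next to the exit tunnel, had ratios of -0.28, 0.13, 1.20, -0.82 and 0.37, above the host median by 2.21 ± 0.21 (SE, limma adjusted p = 3.85e-05). It was the highest in YAC1 and YAC6 too, and its +1 peak lay at 20 to 40 bp, so that part of this nucleosome falls in the promoter window. RPL42B had -1.04, 0.62, 2.20, -3.06 and 0.51, a difference of 1.93 ± 0.55 (SE, limma adjusted p = 0.0131), and RPL2B -1.26, 0.41, 1.68, -2.97 and 0.46, a difference of 1.75 ± 0.49 (SE, limma adjusted p = 0.0128). Both were called higher although they lay below the host median in YAC6. Without YAC2 neither was called (limma adjusted p = 0.0617 and 0.0609), nor without YAC7 (limma adjusted p = 0.0501 and 0.0517) or with the window from -200 to -20 bp (limma adjusted p = 0.0719 and 0.177). RPL42B was also not called with the promoter set against the host median signal (limma adjusted p = 0.0781).

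Measured by the SD of the promoter ratio between libraries, after subtraction of each host median, the RPL genes had a median of 0.63 and the host genes of 0.34. Above the 95th percentile of the host, 0.84, were 23 of the 59 RPL genes (host 5.01%) and 23 of the 42 RPS genes. With 1 library left out it was 20 to 23 RPL genes. RPL42B (SD 1.74), RPL2B (1.55), RPL40A (1.49) and RPL20B (1.34) varied most. RPL18B (YNL301C) at 0.18 and RPL28 (YGL103W), the CYH2 gene of cycloheximide resistance, at 0.18 varied least. RPL18B had promoter ratios of -2.11, -1.72, -1.96, -2.46 and -1.72, and RPL28 of -2.45, -1.65, -1.69, -2.67 and -1.96. On the mean they stood 0.09 and 0.00 from the host median. RPL28 was steady only close to the start, since its mid-promoter ratio ran from -3.43 in YAC6 to -0.95 in YAC3.

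The depleted region was taken as the stretch around the lowest point between -250 and 0 bp where the smoothed signal stayed under 0.5 of the body mean. It was widest in YAC6 and narrowest in YAC3. Median widths over the 59 genes were 290, 170, 100, 360 and 140 bp, where the host had 170, 150, 170, 150 and 160 bp. A region of 250 bp or more was found in 37, 20, 15, 50 and 15 RPL genes, and in 28.0%, 23.2%, 30.9%, 19.4% and 29.6% of host genes. The downstream border stayed at -10 to 0 bp in all libraries, and the upstream border moved, from -350 bp in YAC6 and -300 bp in YAC1 to -205 bp in YAC2, -200 bp in YAC7 and -155 bp in YAC3. Inside the region, the lowest smoothed point was under 0.05 of the body mean in 20, 14, 8, 57 and 8 of the 59 genes. The host shares were 42.9%, 17.7%, 25.4%, 48.0% and 23.0%, so the share of RPL genes lay above that of the host in YAC6 and YAC2 and below it in the other 3 libraries. The widths are a description and were not tested.

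The widest regions on the mean of 5 libraries were those of RPL24A, RPL5 and RPL10. RPL24A, for eL24 in a bridge between the subunits, had widths of 400, 420, 500, 540 and 500 bp. In the gene table its upstream neighbour is RPL30 (YGL030W), which is read in the opposite direction, so both share an intergenic region. RPL30 had widths of 360, 380, 270, 500 and 370 bp. RPL5 had 400, 390, 600, 340 and 420 bp, and RPL10 had 410, 370, 430, 360 and 380 bp. None of these regions was narrowest in YAC3 except that of RPL30.

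The narrowest were those of RPL1A (YPL220W), RPL42B and RPL1B (YGL135W). RPL42B had 80, 50, 30, 320 and 0 bp, where 0 means that no stretch under 0.5 was found. RPL1A and RPL1B encode the same protein of the mobile L1 stalk and had 160, 0, 40, 170 and 40 bp and 190, 120, 30, 190 and 120 bp. Empty bins were frequent in both, up to 21 bins of RPL1A and 30 of RPL1B in one library. The handling of reads shared by near-identical copies was not given in the sources used here, so single values of such copies are uncertain.

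Upstream nucleosomes were measured as log2 of the mean at -450 to -200 bp divided by the mean at +100 to +500 bp. Medians of the RPL genes were -0.93, -0.42, -0.14, -0.82 and -0.31, and the host medians lay between -0.23 and -0.17. The limma test called 25 of 59 genes lower (42.4%; 34.0% of all genes) and 15 higher (25.4%; 33.7% of all genes), with a median of -0.60, against -0.01 over all genes tested. That median was -0.32 without YAC6 and also -0.32 with a pseudocount of 0.5 times the gene mean. The group was thus split. In YAC1 and YAC6 alike 40 of the 59 genes lay below the host median, and in YAC3 28 did.

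The least upstream signal was that of RPL27B (YDR471W), with ratios of -2.97, -1.96, -2.56, -2.61 and -1.94, a difference of -2.21 ± 0.21 (SE, limma adjusted p = 0.000162). RPL14A (YKL006W) had -2.53, -1.80, -0.81, -3.78 and -0.76 (difference -1.74 ± 0.42, SE, limma adjusted p = 0.00675), and RPL37A (YLR185W) had -2.54, -1.42, -0.57, -3.82 and -1.23 (difference -1.72 ± 0.42, SE, limma adjusted p = 0.00725). The first was low in all 5 libraries, and the other two were lowest in YAC6 and YAC1. The most upstream signal was that of RPL1A, at 2.09, 2.20, 2.24, 1.59 and 2.32, above the host median by 2.29 ± 0.21 (SE, limma adjusted p = 0.000155). RPL14B followed with 1.20, 1.21, 1.00, 0.74 and 1.67 (1.36 ± 0.15, SE, limma adjusted p = 0.000219), and RPL38 (YLR325C) with 0.91, 1.17, 0.99, 0.29 and 2.08 (1.29 ± 0.23, SE, limma adjusted p = 0.00147). For RPL1A the ratio rests on a low body signal. RPL38 is 237 bp long in the gene table, so most of its body window lies past its end.

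Of the 59 genes, 31 have an upstream neighbour read in the opposite direction and 28 one read in the same direction. The median width of the depleted region averaged over libraries was 228 bp for the first and 205 bp for the second, and the mid-promoter ratio -1.43 and -1.23. Both kinds ran from the lowest ratio in YAC6 (-3.23 and -3.26) to the highest in YAC3 (-0.01 and 0.23).

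The first nucleosome inside the RPL genes lay close to where it lies in other host genes. In the mean profiles its peak was at 85.4, 87.7, 84.2, 81.02 and 84.9 bp, and that of the host at 81.3, 80.7, 81.9, 78.7 and 79.4 bp. The means were 84.7 ± 2.41 bp and 80.4 ± 1.34 bp (SD, n = 5), with the RPL peak further downstream in 5 of 5 libraries. The median positions of single genes, read in steps of 10 bp, differed by 10, 10, 0, 0 and 10 bp. The peak was also higher, 1.65 ± 0.15 against 1.48 ± 0.09 (SD, n = 5). The origin of the listed starts was not given in the sources used here, and starts set elsewhere in some genes would move these peaks.

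In the mean profile the next nucleosome lay nearer. The distance from the +1 to the +2 peak of the mean profile was 142.02, 130.1, 132.4, 139.4 and 138.7 bp, a mean of 136.5 ± 5.05 bp against 164.5 ± 1.65 bp in the host (SD, n = 5). All 5 RPL values lay below all 5 host values. RPS genes gave 148.8 ± 4.20 bp and mitochondrial large-subunit genes 165.5 ± 1.89 bp. In single genes the median distance was 140 to 150 bp for the RPL genes and 170 bp for the host in each library. The RPL quartiles were 120 to 130 bp and 170 to 230 bp, where 120 and 230 bp are the limits of the search. In 9, 12, 9, 4 and 11 RPL genes the +1 peak lay at 150 bp, the end of its own search. Their distances are uncertain. The row was also less even: the +1 peak stood 0.49 ± 0.05 above the next trough and the +2 peak 0.42 ± 0.06 (log2, SD, n = 5), against 0.78 ± 0.16 and 0.66 ± 0.10 in the host. The comparison of distances was added after the data were seen, has no test, and rests on a mean of genes whose arrays differ.

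In single genes the +1 peak sat earliest in RPL26A, at 30, 30, 30, 20 and 40 bp, and in RPL1A, at 60, 50, 50, 60 and 60 bp. The latest, RPL37A and RPL15A, were at 150 bp in all 5 libraries, which is the end of the window searched. So were 9, 12, 9, 4 and 11 of the 59 genes (15.3%, 20.3%, 15.3%, 6.78% and 18.6%), and for these the position is a lower limit. The host shares were 7.04%, 11.5%, 14.6%, 3.89% and 11.7%, so in YAC3 the share was near that of the host. The position of RPL26A differed by no more than 20 bp between libraries in which its promoter ratio differed by 2.02.

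Gene bodies of the RPL genes gave less signal than those of the median host gene in all 5 libraries. Body signal is log2 of the mean from +100 to +500 bp over the host median. Medians of the 59 genes were -0.70, -0.81, -0.63, -0.46 and -0.79, and 56, 51, 41, 58 and 53 of the genes lay below the host median. The limma test called 41 of 59 lower (69.5%; 23.6% of all genes) and 1 higher (1.69%; 25.9% of all genes), and the median difference was -0.70, against -0.00 over all genes tested. In this fit the SE of a gene followed the trend of all genes at its level, not its own 5 values. Small p values therefore rest on a spread pooled across genes, which includes the chromosome shifts of YAC2 and YAC3. Set against the median of each gene's own chromosome, an alternative added after the data were seen, 45 were lower and 1 higher, with a median of -0.64. RPS genes gave 30 lower and 0 higher of 42, and mitochondrial large-subunit genes 4 lower and 4 higher of 28. Nucleosome number, recovery of their DNA and loss of reads shared by near-identical copies cannot be told apart from these values. A lower body signal also raises the ratios to the gene body.

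**Figure D4:**
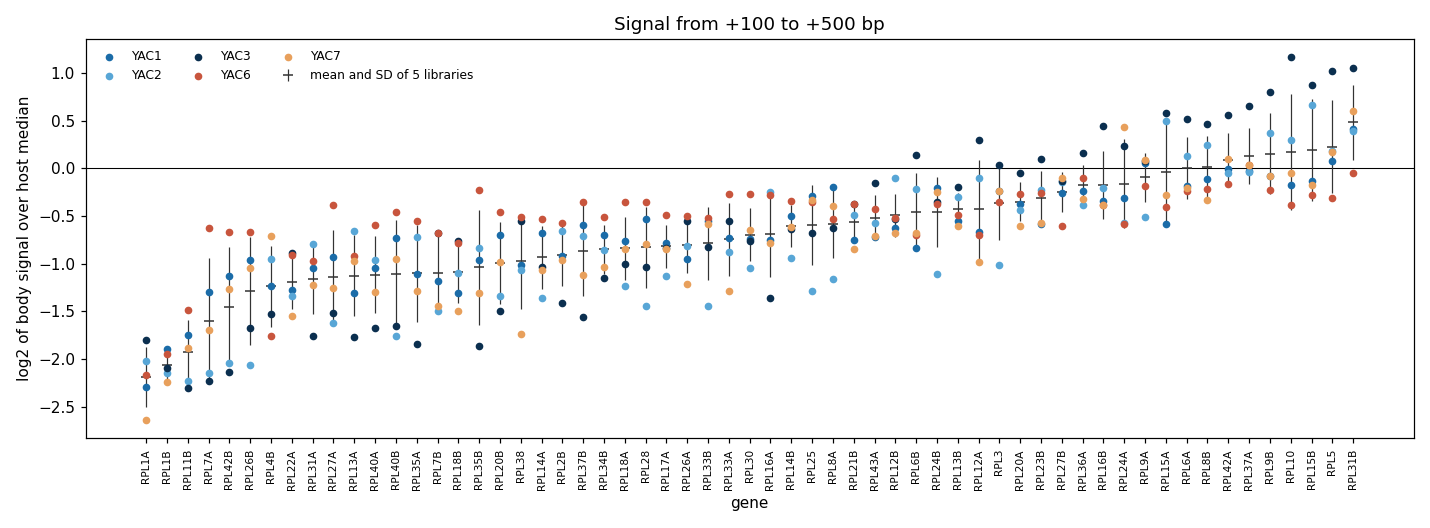
Log2 of the signal from +100 to +500 bp over the host median (y axis) for each of the 59 genes (x axis, lowest mean at the left), with 1 coloured point per library and a bar for the mean and SD of 5 libraries. Most genes lie below the line at 0 in all libraries, and RPL31B, at the right end, lies above it in 4 of 5.

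The lowest body signal was that of RPL1A, at -2.30, -2.02, -1.80, -2.17 and -2.64 (difference -2.19 ± 0.26, SE, limma adjusted p = 4.84e-14). RPL1B followed with -1.89, -2.15, -2.09, -1.94 and -2.25 (-2.07 ± 0.26, SE, limma adjusted p = 6.16e-13), and RPL11B (YGR085C), for the uL5 protein that joins the ribosome with 5S RNA, with -1.74, -2.23, -2.31, -1.49 and -1.89 (-1.93 ± 0.25, SE, limma adjusted p = 8.33e-12). The ranges of these genes did not reach the host median in any library. Their SE and p rest on the spread pooled across genes, so the size of p is not evidence from 5 libraries alone. All 3 have a near-identical copy and empty bins in the body window, up to 4, 9 and 19 of 41 bins in the library with the most. In all, 6 of the 59 genes had an empty body bin in some library, RPL4B (YDR012W, 9 bins) among them. The share among host genes was not counted.

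The highest body signal was that of RPL31B (YLR406C), for eL31 at the exit tunnel, at 0.41, 0.39, 1.05, -0.04 and 0.60 (0.48 ± 0.16, SE, limma adjusted p = 0.00833), the 1 gene called higher. With a window from +50 to +300 bp its value was -0.30 and it was not called. The call in the main window also rests on the pooled spread. RPL5 (0.07, 0.19, 1.02, -0.31 and 0.17) and RPL15B (-0.13, 0.67, 0.88, -0.28 and -0.18) came next and were not called, with limma adjusted p = 0.193 and 0.275. In each of these genes YAC3 was the highest library and YAC6 the lowest. All 3 lie on chromosomes whose median in YAC3 was 0.50 to 0.56 above the host median.

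Duplicate copies encode identical or nearly identical proteins, and their promoters were compared within each library. The A copy had the higher or the lower promoter ratio in all 5 libraries in 10 of the 21 pairs (47.6%), where 57.7% of all pairs of host genes kept their order. The median absolute difference was 0.57, against 0.79 for all pairs of host genes and 0.52 for 14 RPS pairs. Neither the share nor the median of the RPL pairs lay above that of the pairs of host genes. The exact two-sided sign-flip test over 5 libraries gave each of these 10 pairs the smallest p it allows, which is 0.131 after adjustment over 21 pairs, so it cannot pass 0.05. The A copy was lower in 8 pairs on the mean.

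**Figure D5:**
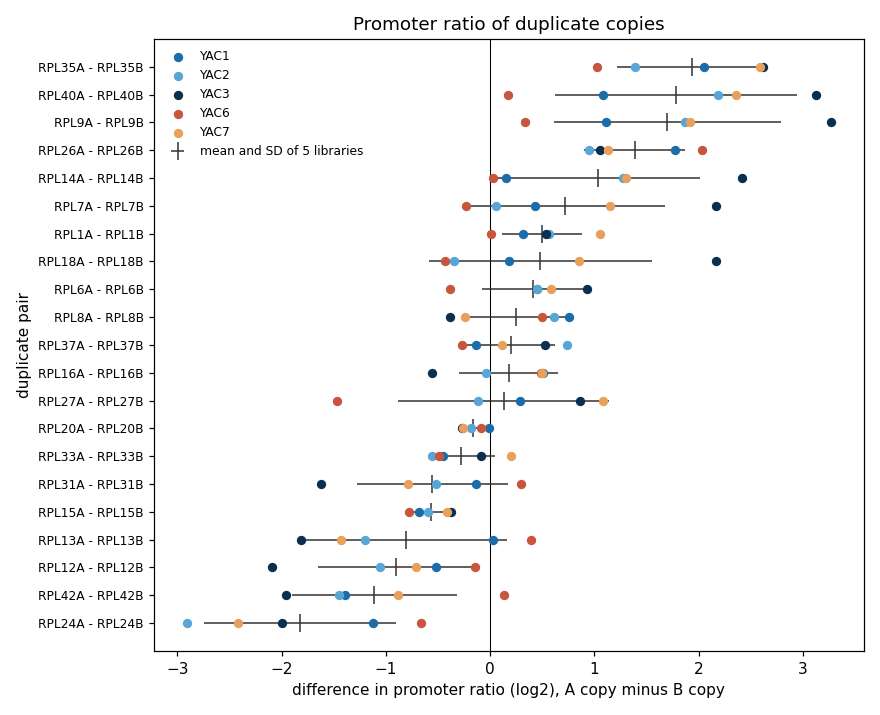
Difference in promoter ratio between the A and the B copy (x axis, log2) for the 21 duplicate pairs (y axis), with 1 coloured point per library and the mean and SD of 5 libraries. RPL35A/RPL35B at the top and RPL24A/RPL24B at the bottom keep their sign in all libraries, and points of YAC3 and YAC6 often lie at opposite ends of a pair.

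The largest gap was that of RPL35A over RPL35B (YDL136W), which encode uL29 at the exit tunnel, at 2.0497, 1.39, 2.62, 1.02 and 2.59 (mean 1.93 ± 0.71, SD, n = 5). RPL24A lay below RPL24B (YGR148C) by 1.82 on the mean, at -1.13, -2.91, -2.00, -0.67 and -2.42 (SD 0.92). The sign was the same in all libraries for both. RPL40A exceeded RPL40B (YKR094C) by 1.78 ± 1.16 (SD, n = 5), with 1.08, 2.18, 3.13, 0.17 and 2.36, and RPL9A (YGL147C) exceeded RPL9B by 1.701 ± 1.09, with 1.11, 1.87, 3.27, 0.34 and 1.92. In these 4 pairs the gap was smallest in YAC6, where all of these copies had ratios of -2.80 or lower. It was largest in YAC3 for all but RPL24A and RPL24B, whose gap was largest in YAC2.

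The pairs with the smallest mean difference were unlike each other. RPL20A (YMR242C) and RPL20B differed by only -0.16 ± 0.11 (SD, n = 5), between -0.27 and -0.0089, and both copies ran together from -3.03 and -2.95 in YAC6 to 0.88 and 1.15 in YAC3. RPL27A (YHR010W) and RPL27B differed by 0.13 ± 1.01, but from -1.47 in YAC6 to 1.09 in YAC7. That mean near 0 therefore covers libraries in opposite directions.

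The question whether the RPL genes differ by the species of the insert is the only one the labels' grouping poses. In the limma fit of 3 *K. lactis* strains against 2 *D. hansenii* strains, no RPL gene and no other host gene was called for the promoter ratio (0.00% of 5252). Host medians were not subtracted in this fit, so its differences include shifts shared by a whole library. The median difference over all genes tested was 0.10. At an unadjusted p under 0.05 there were 0 RPL genes and 7 host genes. For body signal the fit again called none (0.00%), with 2 RPL genes and 73 host genes at an unadjusted p under 0.05. Both host counts lie far below a share of 0.05 of the 5252 genes tested, so a low count in this fit says little. With 3 strains against 2 and YAC1 and YAC6 at the low end of each group, a failure to pass does not show that the groups are alike.

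The smallest unadjusted p for the promoter ratio were those of RPL42B (difference 1.87 ± 1.08, SE), RPL36A (0.80 ± 0.48) and RPL2B (1.53 ± 1.02), all with limma adjusted p = 1. For body signal they were those of RPL15B (0.68 ± 0.32, SE), RPL10 (0.63 ± 0.32) and RPL12A (YEL054C, for uL11 at the stalk base, 0.67 ± 0.38), each with limma adjusted p = 0.925. The differences in body signal are led by YAC2 and YAC3, at 0.67 and 0.88 in RPL15B, 0.30 and 1.17 in RPL10 and -0.10 and 0.30 in RPL12A. These genes lie on chromosomes XIII, XII and V, whose medians in YAC2 and YAC3 were 0.30 to 0.62 above the host median.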

How the data were processed

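Mononucleosomal DNA of 5 strains, 1 library each, was analysed from tables of host genes. CASAVA 1.7.0 is named in the submitters' processing notes, and the aligner, genome build and origin of starts were not given in the sources used here. The deposited signal is coverage scaled by the authors in bins of 10 bp from -500 to +1000 bp, so no counting interval was computed. In 214 names a suffix letter found in the next column was restored. Symbols and neighbours came from a gene table of assembly R64 with 5261 of the 5264 host genes.

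Ratios carry a pseudocount of 0.1 times the gene mean, and body signal an offset of 0.01 times the host median. Genes under 10% of the host median in any library were left out, which kept 5252. A Gaussian of SD 20 bp smoothed the profiles. The +1 peak was sought at 0 to 150 bp and the next one 120 to 230 bp further. limma 3.58.1 in R 4.3.3 (empirical Bayes with trend, Benjamini-Hochberg over 5252 genes, threshold 0.05) was fitted after a test on simulated data. Tests against the host median used the gene value minus that median. The group contrasts used promoter ratios without this subtraction, and body signal divided by the median of all host genes. Python was 3.11.15. The members, gene lists and tests were chosen with earlier results of these data known. Named genes are the extremes of each measure (3 at each end, 2 for the +1 position), the 4 largest and 2 smallest pair differences and SDs, and the 3 smallest p of each group contrast, beside those said to be picked later. Other windows, pseudocounts and references were tried, and each library was left out in turn. Insert tables were not used, and promoter motifs were not analysed here.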

Additional observations from a re-analysis of the deposited data

How the results depend on the processing

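Of the main results (counts, medians and spreads) under 19 alternative settings, 150 comparisons were classed as unchanged and 16 were not. The classing was lenient. The median promoter difference of 0.50 was set against an SD between libraries of 0.61, and 0.24 with a pseudocount of 0.5 was classed as unchanged. So were 16 promoters called higher, against 21, and 6 called lower, against 9, without YAC1. The 150 therefore do not show that values held closely. RPL promoters called higher by limma ranged from 5 to 37 (main 21) when 1 library was left out, and those called lower from 6 to 8 (main 9). The window from -200 to -20 bp gave 22 lower and 1 higher with a median of -0.20, and the promoter over the host median signal gave 18 lower and 8 higher with a median of -0.056, where the main median was 0.50. The median body signal was -0.52 with the window from +50 to +300 bp, where RPL31B was -0.30. Against its own chromosome's median RPL15B was -0.00841. The median SD between libraries, 0.63, was 0.37 with a pseudocount of 0.5, 1.13 with the window from -200 to -20 bp, and 0.54 to 0.72 with 1 library left out. The mid-promoter median of the highest minus the lowest library, 3.31, was 1.71 with a pseudocount of 0.5 and 2.01 to 3.31 with 1 library left out, 2.01 being without YAC6. The pair difference RPL27A/RPL27B was -0.0559 with a pseudocount of 0.01, -0.53 over the host median signal and -0.11 to 0.53 with 1 library left out, and RPL20A/RPL20B was 0.40 over the host median signal. A larger pseudocount compresses ratios of near-empty promoters, and the cause of the other changes was not tested. No paired analysis was possible because the replicate numbers were given in accession order and name no shared origin. The number of reads behind these values is unknown here, so differences near the floor of an almost empty promoter are limited by depth of unknown size, coarsest in YAC3.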
